A study of Arabidopsis thaliana with 6 samples.

Results

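The genes described here are *HSFA2* (AT2G26150), a heat-inducible heat shock transcription factor, and 8 heat shock protein (HSP) genes of *Arabidopsis thaliana*. The HSP genes are *HSP101* (AT1G74310), *HSP90.1* (AT5G52640), *HSP70-4* (AT3G12580), *HSP17.6II* (AT5G12020), *HSP17.6A* (AT5G12030), *HSP17.4* (AT3G46230), *HSP18.2* (AT5G59720) and *HSP21* (AT4G27670). These 9 genes were chosen by name and are 9 of the 37184 gene identifiers counted. RNA-seq of rRNA-depleted total RNA was available for 6 libraries of whole 14-day-old seedlings. They comprised 3 libraries of the Col-0 wild type (WT) and 3 of *nol12-4*, a homozygous T-DNA insertion line in *AtNOL12* (AT1G11240), which encodes a nucleolar protein of pre-rRNA processing. Both genotypes grew in long days of 16 h light and 8 h dark at 22/19 °C on medium with 1% sucrose, after 2 days of stratification. The labels name no heat treatment of these seedlings, and *nol12-4* is a single insertion line. The study's methods call the replicates biological, without saying whether they were sown or harvested separately, so p-values measure the spread between these libraries.

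The heat shock response is a transcriptional programme in which heat shock factors of the HSFA1 type, released from chaperones when proteins misfold, bind heat shock elements in front of target genes. One of these targets is *HSFA2*, whose product prolongs the response and supports acquired thermotolerance. The targets also include the molecular chaperones. HSP101 is a ClpB-type disaggregase of the cytosol, HSP90.1 and HSP70-4 are heat-inducible cytosolic forms of families that also have constitutive members, and the small HSPs hold unfolding proteins in a soluble state. HSP17.4 and HSP18.2 are cytosolic small HSPs of class I, HSP17.6II and HSP17.6A are cytosolic small HSPs of class II, and HSP21 acts in the plastid.

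A heat shock element is a run of 5-base units, NGAAN alternating with NTTCN without gaps. The longest run in the 500 bases before each start codon is printed. Heat shock factors, the family of the *HSFA2* product, recognise elements built of such units, but a printed run need not be a recognised element. The stretches of 30 bases below were read from the RefSeq TAIR10.1 reference, 5′ to 3′ on the strand of the gene, with the GAA and TTC cores in capitals. Where runs of a gene tie in length (*HSP17.4* and *HSP21*), the one farther from the start codon is shown.

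HSFA2, chr2:11135528-11135557, plus strand: ttagtaacGAAgtTTCtgGAAcattgtctt
HSP101, chr1:27940322-27940351, minus strand: ataaaataagcGAAaaTTCcacgtgacatc
HSP90.1, chr5:21352254-21352283, plus strand: aacgaaaaGAActTTCtgGAAttcgtttgc
HSP70-4, chr3:3993845-3993874, minus strand: ttactcgtGAAcgTTCtcGAAagctctttg
HSP17.6II, chr5:3883035-3883064, minus strand: gaccaagacgtTTCtcGAAcaatacggaag
HSP17.6A, chr5:3884842-3884871, minus strand: gatcaagacgtTTCtcGAAcgttagagaag
HSP17.4, chr3:16984945-16984974, minus strand: tcaacataGAAgcTTCttGAAgccacctga
HSP18.2, chr5:24062388-24062417, plus strand: caacaaacGAAacTTCctGAAatgccaaga
HSP21, chr4:13820053-13820082, minus strand: aaacgagtcgaGAAacTTCgtatcaaatct

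A run of at least 2 units, on either strand, was found in front of 9 of the 9 genes and of 33.7% of the 27443 protein-coding genes of the reference. Runs of at least 3 units were rarer, at 1.18% of all protein-coding genes, and 5 of the 9 genes had one (*HSFA2*, *HSP90.1*, *HSP70-4*, *HSP17.4* and *HSP18.2*). *HSFA2* had 4 separate runs in its window and *HSP18.2* had 3, while *HSP90.1*, *HSP17.4* and *HSP21* had 2 each and the other 4 genes had 1. The printed stretches of *HSP70-4*, *HSP17.6II* and *HSP18.2* lie inside the annotated transcript, in exonic sequence before the start codon. That of *HSP101* lies upstream of the transcript used for its row in the map but inside the longer of its 2 annotated transcripts, and the other 5 lie upstream of the annotated start. For *HSP90.1* the reference annotates no sequence before the start codon as transcribed. A match to these letters describes the sequence and is no evidence of binding in these seedlings. The stretches of *HSP17.6II* and *HSP17.6A* are much alike, and the genes are tandem neighbours on the minus strand of chromosome 5 with 845 bases between them. Their coding sequences are 85.7% identical. Reads of several alignments were not counted, so reads alike in both genes would be lost rather than shared. The coding sequence of *HSP17.4* is 77% identical to that of *HSP18.2* and 85% identical to that of *HSP17.6C-CI*, a further small HSP. The coding sequence of *HSP18.2* is 77.8% identical to that of *HSP17.6C-CI*.

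**Figure D1:**
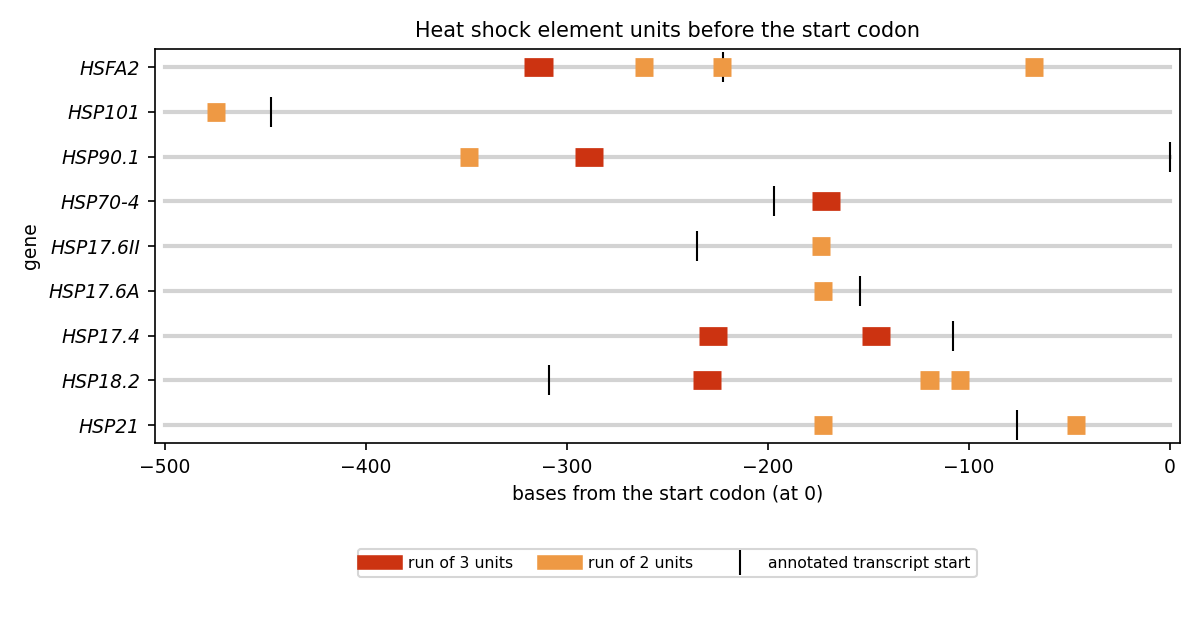
Position of runs of heat shock element units in the 500 bases before the start codon of the 9 genes, with the x axis in bases from the start codon and 1 row per gene. Each mark is a run of 2 or 3 units, and the short tick on a row is the annotated start of the transcript used, which falls at the start codon for *HSP90.1*. *HSFA2* carries 4 runs and *HSP18.2* carries 3.

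The libraries held 56627497 to 75001252 counts on genes, and 47.05 to 56.58% of these fell on organelle genomes. All levels below are CPM (counts per 1e6 counts on genes), scaled by TMM factors. A floor of 3 counts was 0.0388 to 0.05128 CPM, and floors and intervals of ratios cover counting error only. *AtNOL12* itself had 663, 642 and 894 counts in WT and 1186, 770 and 2142 in *nol12-4*. These counts sum all exons of the locus and cannot check a T-DNA label. In the morning-phased clock genes *CCA1* and *LHY*, *nol12-4* replicates 1 and 2 stood apart from the other 4 libraries. The CPM of *CCA1* was 1.099, 1.53 and 3.52 in WT and 96.8, 94.1 and 2.44 in *nol12-4*. The CPM of *LHY* was 1.13, 1.24 and 1.06 in WT and 58.6, 49.5 and 0.970 in *nol12-4*. The pattern of *CCA1* and *LHY* therefore overlaps the genotype in 2 of 3 mutant libraries. Its part in the results below and that of genotype cannot be told apart in those libraries. Values without *nol12-4* replicate 3 and for that replicate alone are given for the genes that the results turn on. Among WT libraries, replicate 3 stood apart in *PRR7*, *PRR5*, *GI* and *LUX*. In the order of WT replicates 1 to 3, *PRR7* was at 31.27, 31.6 and 121.3 CPM and *PRR5* at 27.99, 29.97 and 81.99. *GI* was at 51.31, 48.62 and 113.2 CPM and *LUX* at 30.62, 30.14 and 58.94. *TOC1* differed little (130.1, 125.6 and 141.4 CPM), and *ELF4* was lowest in replicate 3 (3.55, 3.025 and 1.715 CPM). The part of this in the WT spread was not tested. An estimate for *nol12-4* replicate 3 alone rests on 1 mutant library and is given without a test. Leaf markers were 6 of 6 estimated higher in *nol12-4*, with a summed CPM of 4559 to 6177 in WT and 7571 to 14888 in the mutant. Gene by gene, all mutant libraries were above all WT libraries in only 3 of these 6 (beside 14.5% of tested genes), and the groups overlapped in the others. Root markers were also 6 of 6 estimated higher, with sums of 648 to 896 and 1020 to 1097 CPM and no overlap in 5 of the 6, beside the same 14.5%. The part of these markers in the results was not tested. In bulk seedlings more cells of a type and more RNA per cell cannot be told apart.

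*HSFA2* and the large heat-inducible chaperone genes did not differ between genotypes beyond the spread between libraries, and that spread was wide. *HSFA2* had 336, 164 and 72 counts in the WT libraries, and 14, 33 and 302 in the *nol12-4* libraries, in the order of replicates 1, 2 and 3. *nol12-4* replicates 1 and 2 were the lowest of the 6 libraries, whereas *nol12-4* replicate 3 lay between WT replicates 1 and 2, so the groups overlapped. The mean level was 2.75 ± 1.85 CPM in WT and 1.55 ± 2.05 CPM in *nol12-4* (SD, n = 3 each). As a log2 fold change, *nol12-4* against WT, the estimate was −0.82 with a SE of 1.01 and a 95% interval from −3.18 to 1.54 (edgeR quasi-likelihood test, adjusted p = 0.682). Highest and lowest library differed 4.41-fold within WT and 20.5-fold within *nol12-4*. Without *nol12-4* replicate 3 the estimate was −2.89 (adjusted p = 0.0756), and for that replicate alone against WT it was 0.50. Leaving out WT replicate 1 gave −0.18, and leaving out *nol12-4* replicate 1 or 2 gave −0.29 or −0.43.

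The disaggregase gene *HSP101* had 1269, 715 and 594 counts in WT and 327, 325 and 1574 in *nol12-4*. Its highest and its lowest values were both in mutant libraries, at 20.4 CPM in replicate 3 and 4.44 CPM in replicate 1. The means were 12.5 ± 4.76 CPM in WT and 10.1 ± 8.88 CPM in *nol12-4* (SD, n = 3 each). The estimate for *HSP101* was a log2 fold change of −0.30 with a 95% interval from −1.66 to 1.06 (edgeR adjusted p = 0.804).

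*HSP90.1*, of a chaperone family that folds signalling proteins and holds heat shock factors inactive, had 1797, 1132 and 675 counts in WT and 467, 492 and 1957 in *nol12-4*. In CPM, WT replicate 1 and *nol12-4* replicate 3 were the highest, at 25.3 each, and *nol12-4* replicates 1 and 2 were below all WT libraries at 6.35 and 8.41. The log2 fold change was −0.38 with a 95% interval from −1.68 to 0.91 (edgeR adjusted p = 0.731).

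The Hsp70 gene *HSP70-4* had 1612, 738 and 807 counts in WT and 487, 604 and 2208 in *nol12-4*. The mean levels were 15.3 ± 6.46 and 15.2 ± 11.7 CPM (SD, n = 3 each), although the mutant libraries spanned 6.62 to 28.6 CPM. The log2 fold change was −0.01 with a 95% interval from −1.28 to 1.26 (edgeR adjusted p = 0.994). An interval of this width leaves differences of about 1 log2 unit in either direction undetectable with these libraries.

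*HSFA2*, *HSP101*, *HSP90.1* and *HSP70-4* thus shared 1 order of mutant libraries. In each of the 4 genes *nol12-4* replicate 1 was the lowest of all 6 libraries, *nol12-4* replicate 2 the next lowest, and *nol12-4* replicate 3 the highest or second highest. The standard deviation of log2 CPM within genotypes was 1.67 for *HSFA2*, 0.91 for *HSP101*, 0.88 for *HSP90.1* and 0.86 for *HSP70-4*, against a median of 0.30 over all genes tested, which put the least variable of them, *HSP70-4*, above 92.65% of tested genes. Without *nol12-4* replicate 3 the estimates of the 3 chaperone genes were −1.32 for *HSP101* (adjusted p = 0.063), −1.24 for *HSP90.1* (adjusted p = 0.106) and −0.85 for *HSP70-4* (adjusted p = 0.213). With that replicate alone against WT, they were 0.70, 0.54 and 0.90 in the same order. Without WT replicate 1 the estimates were 0.05 for *HSP101*, −0.02 for *HSP90.1* and 0.39 for *HSP70-4*, and without *nol12-4* replicate 1 they were 0.06, −0.05 and 0.35. The size of the estimates in these 4 genes, and in some of these fits their direction, depended on which libraries were used.

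**Figure D2:**
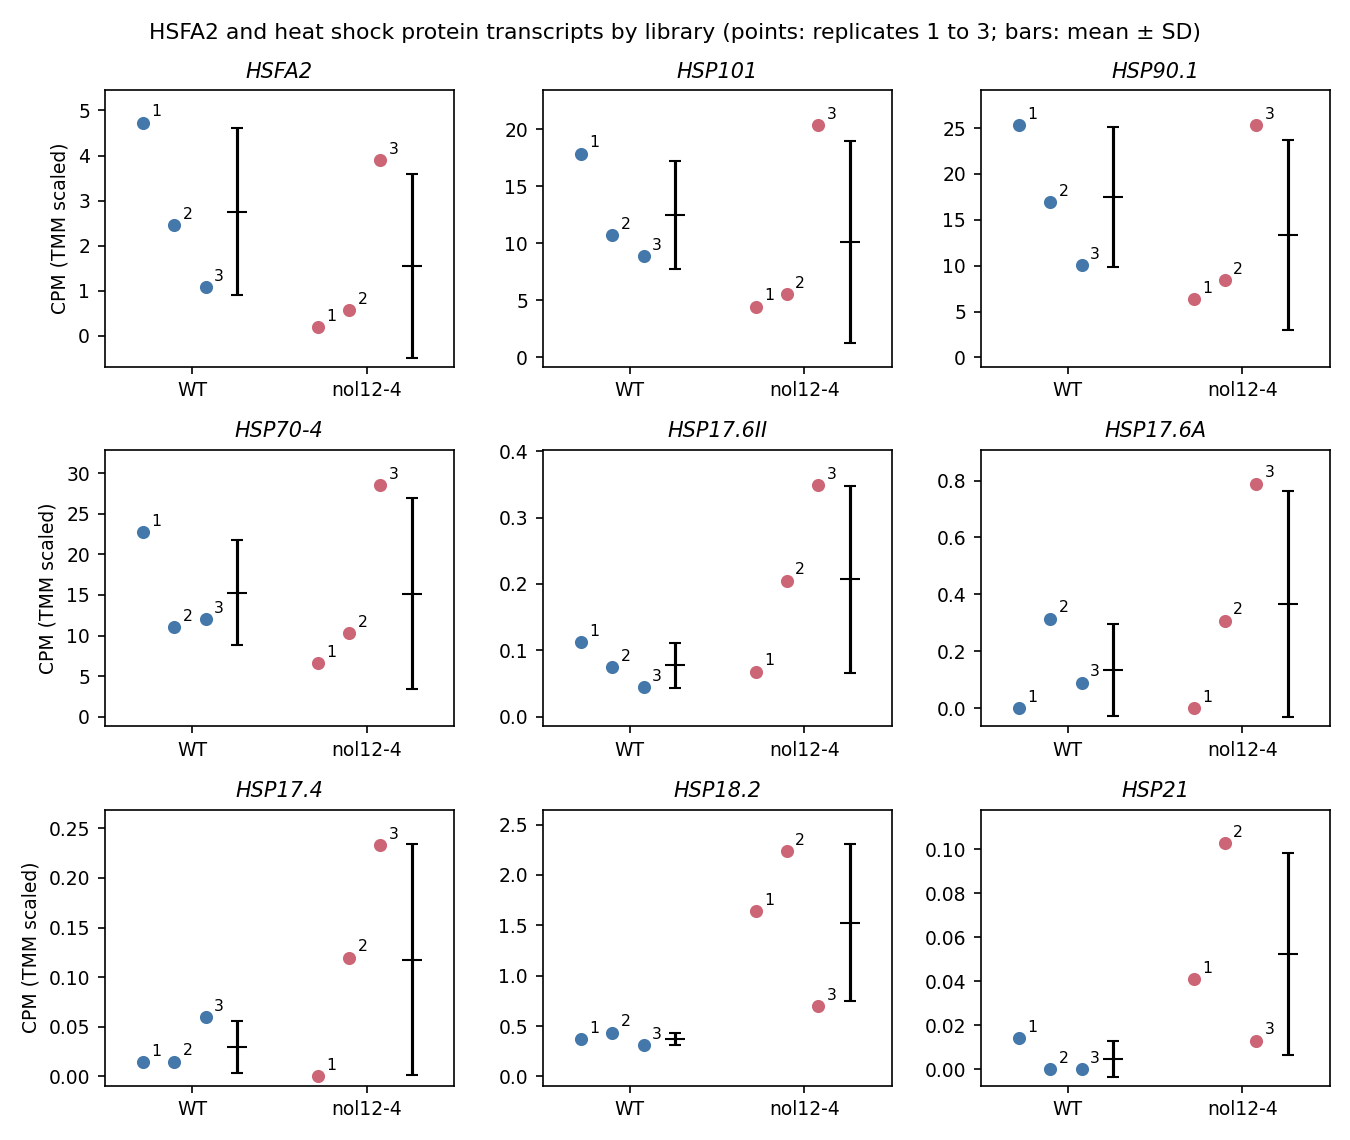
Level of the 9 genes in each library (y axis, CPM, a separate linear scale per gene), with WT and *nol12-4* side by side. Points are libraries numbered by replicate, and the bar and whiskers are the mean and SD of 3 libraries. *HSFA2*, *HSP101*, *HSP90.1* and *HSP70-4* overlap between genotypes with *nol12-4* replicate 3 near the top, while the 3 mutant libraries of *HSP18.2* lie above WT.

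The small HSP *HSP18.2* was the only one of the 9 genes with all 3 mutant libraries above all 3 WT libraries. It had 26, 29 and 21 counts in WT and 121, 131 and 54 in *nol12-4*, which are 0.371 ± 0.0607 and 1.53 ± 0.777 CPM (SD, n = 3 each). The estimate was a log2 fold change of 2.03 with a SE of 0.48 and a 95% interval from 0.91 to 3.16. In edgeR's quasi-likelihood test it did not pass after adjustment (adjusted p = 0.091). DESeq2, the tool of the study, called it higher at the same size (2.03, adjusted p = 0.00241). *nol12-4* replicates 1 and 2 were higher (1.64 and 2.24 CPM) than replicate 3 (0.698 CPM). Without replicate 3, edgeR called the gene higher (2.38, adjusted p = 0.0175), beside 4.71% of the 22033 genes then tested. For replicate 3 alone the estimate was 0.91, and with the mean of *CCA1* and *LHY* as a covariate it was also 0.91. Neither of these fits called any gene of the whole table, so they bear on the size and not on the call.

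The class II pair was sparse. *HSP17.6A* had 0, 21 and 6 counts in WT and 0, 18 and 61 in *nol12-4*, so 1 library of each genotype had no count, which in each allows up to 3 counts. The log2 fold change was 1.45 with a 95% interval from −1.94 to 4.83 (edgeR adjusted p = 0.609), and the groups overlapped. Leaving out *nol12-4* replicate 3 gave 0.15, that replicate alone gave 2.55, and leaving out WT replicate 2 gave 3.01. Its neighbour *HSP17.6II* had 8, 5 and 3 counts in WT and 5, 12 and 27 in *nol12-4*, below the filter for testing. Summed over libraries this was 16 against 44 counts, a depth-scaled ratio of 2.69 (95% exact binomial interval 1.49 to 5.11). Leaving out *nol12-4* replicate 3 gave a ratio of 1.65 (0.783 to 3.48). *nol12-4* replicate 3 was the highest library for both neighbours, as it was for *HSP101* and *HSP70-4*.

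*HSP17.4* and the plastid gene *HSP21* were near the floor. *HSP17.4* had 1, 1 and 4 counts in WT and 0, 7 and 18 in *nol12-4*, a ratio of sums of 4.08 (95% interval 1.63 to 12.2). This rested on single libraries, since leaving out *nol12-4* replicate 3 gave 1.81 (0.521 to 6.52). Leaving out *nol12-4* replicate 1 gave 6.28 and leaving out WT replicate 3 gave 8.22. On the opposite strand *HSP17.4* overlaps AT3G46220 by 60 bases, a gene with 8711 counts over all libraries. It also overlaps the non-coding AT3G07365 by 453 bases, a gene with 7 counts. Whether reads from the opposite strand entered the counts of *HSP17.4* was not tested. *HSP21* had 1, 0 and 0 counts in WT and 3, 6 and 1 in *nol12-4*, a ratio of sums of 9.78 (95% interval 1.39 to 424.4) that rests on 11 counts in all and was 5.43 (0.537 to 267.3) without *nol12-4* replicate 2. Both genes had overlapping libraries, neither was tested by edgeR, and DESeq2 called neither (adjusted p = 0.505 and 0.377). Markers of the seed programme, in which small HSPs are also known to be made, were also higher in sum: 3 of 6 had any count, with a summed CPM of 0.0149 to 0.0300 in WT and 0.239 to 0.353 in *nol12-4*. *SESA1*, *OLEO1* and *EM1* were at 0 in all 6 libraries, and the part of seed RNA in these counts was not tested.

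Of the 9 genes, 6 passed the filter on low counts and were tested: all except *HSP17.6II*, *HSP17.4* and *HSP21*. edgeR called 0 of the 6 higher, beside 0.226% of the 21705 genes tested, and 0 lower, beside 0.0691%. At an unadjusted p under 0.05 there was 1 higher (*HSP18.2*, beside 12.1% of tested genes) and 0 lower (beside 7.91%). Libraries did not overlap in 1 of the 6 in the higher direction (beside 14.5%) and in 0 in the lower direction (beside 11.6%). DESeq2, which tested all 9, called 1 higher (beside 6.2% of 24147 genes) and 0 lower (beside 3.21%), and limma-voom called 0 higher (beside 0.318%) and 0 lower (beside 0.0737%). The median log2 fold change of the 6 genes was −0.16, beside −0.01 over all genes tested, with 2 estimates above 0 and 4 below (*HSP70-4* was above 0, at 0.13, with library size alone).

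Per kb of exon, the order of the WT levels was *HSP90.1* (8.30 ± 3.63 CPM per kb), *HSP70-4* (6.06 ± 2.57), *HSP101* (3.71 ± 1.42), *HSFA2* (1.47 ± 0.985) and *HSP18.2* (0.380 ± 0.0621), each as mean ± SD of 3 libraries. *HSP17.6A* (0.153), *HSP17.6II* (0.0879), *HSP17.4* (0.0409) and *HSP21* (0.00478) followed. Neighbours in this order differed by less than the sum of their SDs, except that *HSFA2* and *HSP18.2* differed by slightly more. In *nol12-4* the order was the same down to *HSP101* (6.35, 6.02 and 3.01 CPM per kb), but *HSP18.2* (1.56 ± 0.795) stood above *HSFA2* (0.828 ± 1.09), a difference within their spread. Some relatives were far more abundant, with *HSP70-1* at 405.5 CPM per kb in WT and 378.7 in *nol12-4*, and *HSP90.3* at 102.9 and 108.3. Others were not, with *HSP90.4* at 10.6 and 13.7 CPM per kb and *HSP70-2* at 4.46 and 4.68.

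**Figure D3:**
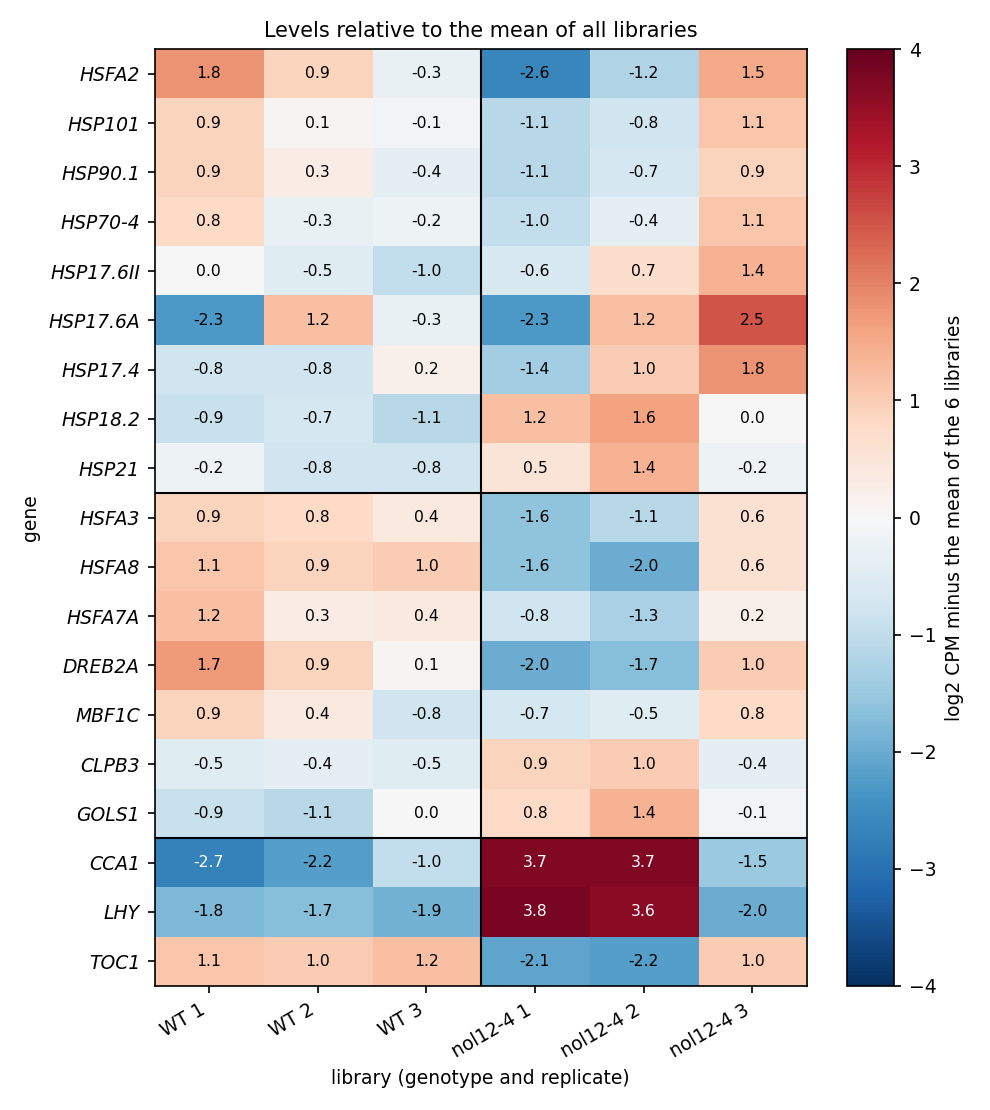
Deviation of log2 CPM in each of the 6 libraries (columns) from the gene's mean over libraries, for heat shock genes and clock genes (rows), with red for higher and blue for lower values. *HSFA2*, *HSP101*, *HSP90.1* and *HSP70-4* are lowest in *nol12-4* replicates 1 and 2 and high in *nol12-4* replicate 3 and WT replicate 1, and *CCA1* and *LHY* are high in *nol12-4* replicates 1 and 2 only.

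The genes whose log2 CPM followed *HSFA2* most closely over the 6 libraries were *GSTF8* (AT2G47730, Pearson r = 0.995), which encodes a glutathione transferase, AT5G62620 (0.991), *IP5PII* (AT4G18010, 0.991), which encodes an inositol polyphosphate phosphatase, *SLG1* (AT5G08490, 0.988) and AT1G08973 (0.987). They were taken from 21704 genes compared, are a description over 6 libraries that share the same clock split, and carry no test. In *GSTF8* the levels were 104.6, 91.9 and 73.6 CPM in WT and 49.4, 62.6 and 94.4 CPM in *nol12-4*, the same order of libraries as *HSFA2* over a much narrower range. *HSP90.1* ranked 17th in likeness (r = 0.978) and *HSP101* ranked 33rd (r = 0.966), while *HSP70-4* ranked 386th (r = 0.890) and *HSP18.2* ran the opposite way (r = −0.708).

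Heat shock factors other than *HSFA2* were mostly estimated lower in *nol12-4*, without a call by edgeR. Of 20 genes, 17 were tested, 15 had an estimate below 0 (*HSFC1* was above 0, at 0.10, with library size alone) and 2 above, and the median log2 fold change was −0.43 beside −0.01 over all genes. edgeR called 0 of them in either direction. Without adjustment, 4 were lower at p under 0.05 (beside 7.91% of tested genes), and all 3 mutant libraries were below all WT libraries in the same number of genes (*HSFA1E*, *HSFA4A*, *HSFA7A* and *HSFA8*), beside 11.6% of tested genes. DESeq2 called 1 lower (beside 3.21% of 24147 genes), *HSFA7A*, a heat-induced factor (−1.23, adjusted p = 0.0411). It had 2301, 1137 and 1216 counts in WT and 566, 328 and 1214 in *nol12-4*. *HSFA8* had 1337, 1091 and 1212 counts in WT and 213, 131 and 1030 in *nol12-4* (−1.53, edgeR adjusted p = 0.236). *HSFA6B*, an abscisic acid responsive factor, had 198, 113 and 39 against 9, 3 and 99 counts (−1.78, edgeR adjusted p = 0.396). In both of these genes replicates 1 and 2 of the mutant were far below replicate 3, as in *HSFA2*, although replicate 2 and not replicate 1 was the lowest.

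Without *nol12-4* replicate 3, edgeR called 6 heat shock factors lower, beside 2.73% of the 22033 genes then tested. They were *HSFA6B* (−4.22), *HSFA8* (−2.79), *HSFA3* (−2.07), *HSFA7A* (−1.76), *HSFA4A* (−1.15) and *HSFA1E* (−1.09). With replicate 3 alone against WT, the estimates of the same genes were −0.40, −0.42, −0.08, −0.53, −0.25 and −0.36. Of the master regulators that act upstream of *HSFA2*, *HSFA1A* (0.03), *HSFA1B* (−0.20) and *HSFA1D* (−0.14) had small estimates in the test of all 6 libraries, and *HSFA1E* was at −0.80 (edgeR adjusted p = 0.171). The highest estimate was that of *HSFB4* (0.44), a factor of root development, followed by *HSFA1A* and *HSFC1* (−0.01). *HSFA9*, the factor of seed maturation, had no count in any library.

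The other chaperone families had median estimates from 0.07 in HSP70 genes to 0.58 in the 2 tested ClpB genes, without a call by edgeR. Among 14 further small HSPs, 10 were tested, 6 estimates were above 0 and 4 below, and the median was 0.14. edgeR called 0 of the 10. At an unadjusted p under 0.05 there was 1 higher (beside 12.1% of tested genes), *HSP17.4-CIII* (AT1G54050). DESeq2 also called it higher (1.08, adjusted p = 0.0238), beside 6.2% of 24147 genes. It had 186, 122 and 87 counts in WT and 327, 179 and 365 in *nol12-4*. Its mutant libraries were above all WT libraries in CPM, as were those of 14.5% of tested genes. Unlike *HSP18.2*, its level in *nol12-4* replicate 3 (4.72 CPM) was no lower than in replicates 1 and 2 (4.44 and 3.06 CPM), and replicate 3 alone gave 1.30. The other high estimates were *HSP26.5-M* (1.14) and *HSP17.6A-CI* (0.42), and the lowest were *HSP18.5* (−0.50), *HSP15.7* (−0.28) and *HSP15.4* (−0.23).

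In the HSP70 family, 11 of 12 further genes were tested, the median was 0.07, and edgeR and DESeq2 called 0. At an unadjusted p under 0.05 in edgeR, 1 was lower, beside 7.91% of tested genes. That gene was *BIP3*, an ER chaperone induced when proteins misfold there, with 84, 33 and 16 counts in WT and 18, 13 and 3 in *nol12-4* (−1.93, edgeR adjusted p = 0.242). Its estimate was −1.45 without *nol12-4* replicate 3, −1.13 without WT replicate 1 and −3.99 for *nol12-4* replicate 3 alone. The highest were the organellar forms *mtHSC70-1* (0.41), *cpHSC70-1* (0.31) and *mtHSC70-2* (0.30). *HSP70-3* (−0.27) and *HSP70-1* (−0.10) were among the lowest, and *HSP70-18* had no count in any library. The 6 other HSP90 genes had estimates above 0, from 0.01 in *HSP90.7* (−0.003 with organelle genomes left out), 0.08 in *HSP90.3* and 0.11 in *HSP90.6* to 0.22 in *HSP90.5*, 0.27 in *HSP90.2* and 0.37 in *HSP90.4*, with a median of 0.17. edgeR and DESeq2 called 0 of them, and 1, *HSP90.4*, was higher at an unadjusted p under 0.05 (beside 12.1% of tested genes).

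Of the ClpB relatives of *HSP101*, *CLPB3* encodes the plastid disaggregase. Its level was 52.9, 55.0 and 50.9 CPM in WT and 134.1, 147.8 and 57.1 CPM in *nol12-4*. All mutant libraries were above WT (as in 14.5% of tested genes), with replicates 1 and 2 far above and replicate 3 just above. The log2 fold change was 1.09 (edgeR adjusted p = 0.142). DESeq2 called *CLPB3* higher (1.09, adjusted p = 0.0274), beside 6.2% of 24147 genes. So did edgeR without *nol12-4* replicate 3 (1.41, adjusted p = 0.00621), beside 4.71% of the 22033 genes then tested. Replicate 3 alone gave 0.11. *CLPB4*, the mitochondrial form, was at 0.07, and *CLPB2* had no count in any library.

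Among 17 co-chaperone and heat-induced genes, 16 were tested, 8 estimates were above 0 and 8 below, and the median was 0.01. edgeR called 0 of them. At an unadjusted p under 0.05 there was 1 higher (beside 12.1% of tested genes), *GOLS1*, a heat-induced galactinol synthase. DESeq2 also called it higher (1.40, adjusted p = 0.0287), beside 6.2% of 24147 genes. It had 150, 126 and 267 counts in WT and 506, 628 and 283 in *nol12-4*. edgeR called it higher once *nol12-4* replicate 3 was left out (1.72, adjusted p = 0.0458), beside 4.71% of the 22033 genes then tested. Replicate 3 alone gave 0.45. The other high estimates were those of *ROF2* (0.40), an immunophilin, and *HSBP* (0.37), a heat shock factor binding protein. The lowest were *ERDJ3A* (−1.31), an ER J-domain protein, *DREB2A* (−1.27), a transcription factor of drought and heat that acts on *HSFA3*, and the coactivator *MBF1C* (−0.30). *DREB2A* had 2214, 1171 and 700 counts in WT and 175, 176 and 1477 in *nol12-4*, the library order of *HSFA2* (r = 0.966). Without *nol12-4* replicate 3 its estimate was −2.88 and edgeR called it lower (adjusted p = 0.0224), beside 2.73% of the 22033 genes then tested. Replicate 3 alone gave −0.05.

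**Figure D4:**
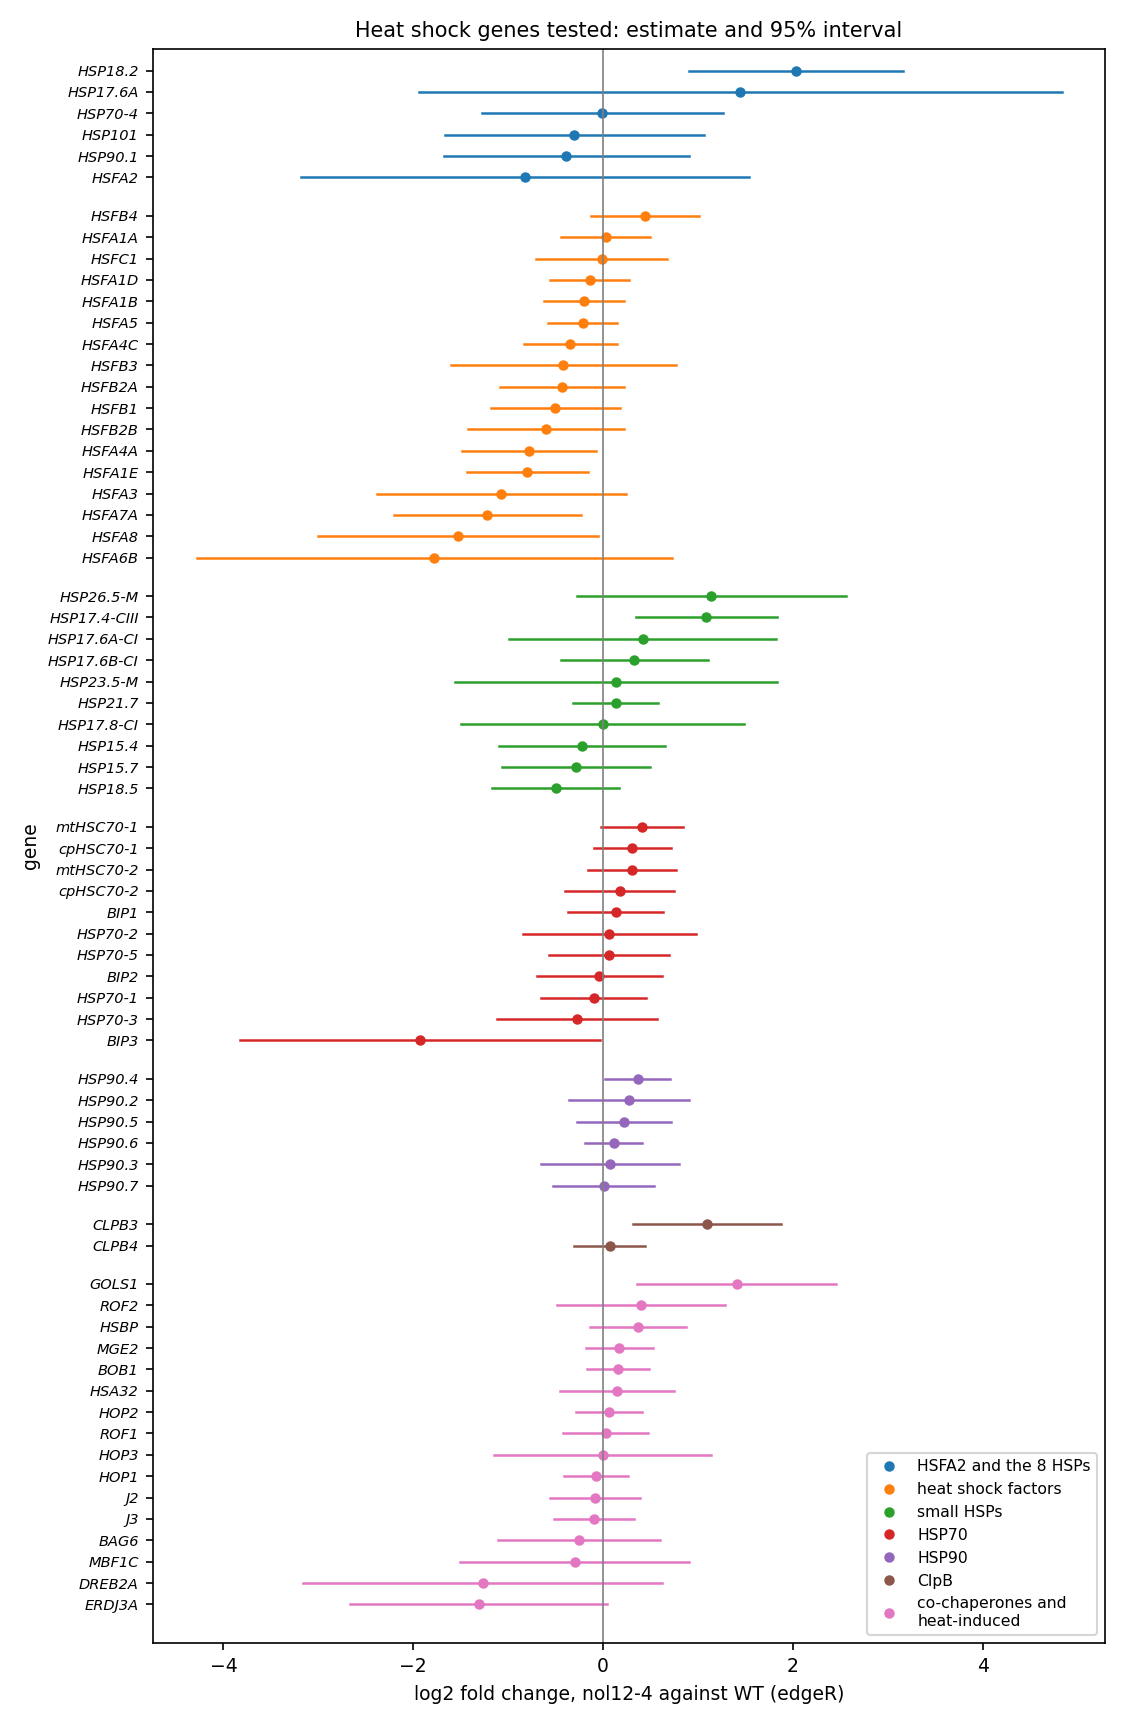
Log2 fold change, *nol12-4* against WT, with 95% interval (edgeR, 3 libraries each) for the tested heat shock genes, in the groups named in the legend. Of *HSFA2* and the HSPs, the interval of *HSP18.2* (0.91 to 3.16) lies above 0 and the other 5 cross it. Point estimates of 15 of the 17 heat shock factors lie below 0, of which *HSFC1* is above 0 with library size alone. Only the intervals of *HSFA1E*, *HSFA4A*, *HSFA7A* and *HSFA8* lie wholly below 0, and those of the other factors cross it.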

How the data were processed

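Gene counts of 6 rRNA-depleted, strand-specific total RNA libraries (3 WT, 3 *nol12-4*) were analysed. Per the labels and the study's methods, the authors aligned paired reads to TAIR10 with HISAT2 2.0.4 and deposited raw counts per Araport11 gene from HTSeq 0.6.0, counted by strand, with reads of several alignments not counted, so near-identical copies can be undercounted. 5 summary lines that name no gene (20.57 to 25.05% of all counts) were removed. Counts were tested with edgeR 4.0.16 (R 4.3.3; filterByExpr, TMM factors, robust quasi-likelihood F test, two-sided, genotype as the only term, Benjamini-Hochberg adjustment over all genes tested, threshold 0.05). Log2 CPM used a prior count of 2. Ratios of sparse sums carry 95% exact binomial intervals. Scripts were tested on simulated data. Alternatives were DESeq2 1.42.0, limma-voom (limma 3.58.1), median-of-ratios factors, library size alone, no filter, organelle genomes left out, a replicate block and each library left out. A clock covariate (mean log2 CPM of *CCA1* and *LHY*) and *nol12-4* replicate 3 alone were added after seeing the data. The 9 genes, the gene lists and the rule for named genes (the 9, constitutive relatives, genes called, the 3 highest and 3 lowest estimates of each list, the 5 genes most like *HSFA2* and genes with no count) were chosen with earlier results of these data known, so no list was tested. Other genes described by name (*CCA1*, *LHY*, *PRR7*, *PRR5*, *GI*, *LUX*, *TOC1*, *ELF4*, *HSFA3*, *HSFA4A*, *HSP70-2*, *HSP17.6C-CI* and those called by DESeq2) were chosen after their values were seen. Promoter sequence and gene positions are of RefSeq TAIR10.1, matched by locus identifier, since the counts carry no coordinates.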

Additional observations from a re-analysis of the deposited data

How the results depend on the processing

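The number of genes called over the whole table was 64 with edgeR, and it was 2274 with DESeq2, 427 with library size alone, 183 without the filter on low counts, 1 with the replicate block, 0 with the clock covariate and 0 for *nol12-4* replicate 3 alone, with a range of 0 to 1639 when 1 library was left out (1639 without *nol12-4* replicate 3). Samples with the same number did not deviate together (correlations of 0.164, −0.113 and 0.035). With 3 libraries per genotype this cannot decide whether same-numbered samples were sown or harvested together. Under the replicate block 0 of the 9 genes was called. *HSFA2* was at −1.65 with that block and at −1.58 with limma-voom, against −0.82. With DESeq2, 1 gene was called among the 9, the heat shock factors, the small HSPs, the ClpB genes and the co-chaperone genes each, against 0 with edgeR. Leaving out a library gave 0 to 1 calls among the 9, 0 to 6 among heat shock factors, 0 to 1 among ClpB genes and 0 to 2 among co-chaperones, each maximum without *nol12-4* replicate 3. The median of the 6 tested genes of the 9 moved from −0.16 to 0.87 with the clock covariate, 0.80 for *nol12-4* replicate 3 alone and a range of −1.05 to 0.22 with a library left out. Library size alone moved the median of all genes from −0.01 to 0.09, and estimates under it are to be read against that shift.

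Estimates changed sign with the clock covariate and for *nol12-4* replicate 3 alone, respectively, in *HSFA2* (0.79, 0.50), *HSP101* (0.83, 0.70), *HSP90.1* (0.68, 0.54), *HSP70-4* (1.01, 0.90), *HSFA1D* (0.084, 0.054), *HSFC1* (0.42, 0.42), *HSP15.7* (0.15, 0.10), *HSP70-1* (0.15, 0.16), *HSP70-3* (0.32, 0.22), *HSP90.7* (−0.11, −0.15) and *MBF1C* (0.63, 0.46), and with the covariate only in *HSP18.5* (0.00) and *DREB2A* (0.16). With library size alone the sign changed in *HSP70-4* (0.13), *HSFC1* (0.10) and *HSP70-1* (0.01), and *HSP90.7* was at −0.000 with DESeq2 and −0.003 without organelle genomes. With a library left out, signs changed in *HSP101* (−1.32 to 0.057), *HSP70-4* (−0.85 to 0.39), *HSFA1A* (−0.088 to 0.17), *HSFC1* (−0.31 to 0.22), *HSP17.6A-CI* (−0.045 to 0.98), *HSP15.4* (−0.55 to 0.022), *HSP70-1* (−0.25 to 0.083), *HSP90.3* (−0.18 to 0.28), *HSP90.7* (−0.18 to 0.15), *CLPB4* (−0.034 to 0.15), *ROF2* (−0.11 to 0.64) and *MBF1C* (−0.92 to 0.11). None of these estimates had an adjusted p under 0.05 in the test of all 6 libraries, and the cause of the changes was not tested.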
